A study of Mus musculus with 48 samples.

Results

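The 8 genes described here carry arginine into the cell and turn it into nitric oxide, citrulline, ornithine and polyamines. They were taken from the deposited count table by symbol, and 8 of 8 were found, among 49568 genes, each in 1 row. Nos2 is inducible nitric oxide synthase and Gch1 is GTP cyclohydrolase 1, which starts the synthesis of tetrahydrobiopterin, the cofactor of nitric oxide synthases. Ass1 (argininosuccinate synthase) and Asl (argininosuccinate lyase) rebuild arginine from citrulline, and Slc7a2 is the cationic amino acid transporter CAT2. Arg1 and Arg2 are the cytosolic and mitochondrial arginases, which make ornithine, and Odc1 is ornithine decarboxylase, which takes ornithine into polyamines.

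As background, nitric oxide synthases and arginases draw on the same substrate. Macrophages exposed to IFN-γ are known for high Nos2, and those exposed to IL-4 for high Arg1, so the gene pair is used widely to describe macrophage states. The citrulline left by nitric oxide synthase can be returned to arginine by Ass1 and Asl.

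The genes were read in messenger RNA of the mouse macrophage line RAW264.7, kept for 72 h under 1 of 8 conditions, with 3 letter-labelled libraries for each. Cells received PBS, 1 of the 15-mer peptides LE, SE or PE (100 µg/ml), IFN-γ (5 ng/ml), or IFN-γ and 1 peptide, and the medium was renewed at 48 h. LE, SE and PE are named in the labels for the same stretch of the HLA-DR β chain of the alleles *0301, *0401 and *0402. The study treats them as epitopes tied to lupus, to rheumatoid arthritis and to protection. The cells are 1 line of mouse cells that received human peptide sequences. The study calls its replicates biological and made them in fewer independent experiments than there were replicates, so some replicates share an experiment. The labels do not say which libraries shared a culture or an experiment, so p-values measure the spread between these libraries. All 3 letter-labelled libraries of a condition may come from 1 experiment.

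Letter-labelled libraries held 16.5 to 26.9 M counts (median 22.9 M). A score of 20 known IFN-γ targets, the mean of log2(CPM + 1) with CPM for counts per M counts of the library, was 2.69 to 2.83 in the 12 libraries labelled without IFN-γ and 6.41 to 6.74 in the 12 labelled with it. In another 24 libraries, which carry HLA numbers in the labels, 12 had a score that went against the label. These 24 enter no main comparison, and only the closing sections describe them or join them to the others. Of 10 macrophage markers 9 exceeded 1 CPM on average (Mertk did not). Their sum was 9845 to 12428 CPM without IFN-γ and 6766 to 9353 CPM with it. Of 4 B cell, 4 epithelial, 5 fibroblast and 5 neutrophil markers 0 exceeded 1 CPM, and of 5 T cell and 3 endothelial markers 1 each did (Lck and Kdr). Of 5 osteoclast markers 4 exceeded 1 CPM, with a sum of 188 to 239 CPM without IFN-γ and 42.2 to 56.7 CPM with it.

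The positions of the genes are those of GENCODE M21 on GRCm38. Nos2 (ENSMUSG00000020826) lies on chromosome 11 from 78920787 to 78960254 on the plus strand. Gch1 lies on chromosome 14 (47153895 to 47189413, minus strand), Ass1 on chromosome 2 (31470207 to 31520672, plus strand) and Asl on chromosome 5 (130011258 to 130029247, minus strand). Slc7a2 lies on chromosome 8 (40862396 to 40922308, plus strand) and Arg1 on chromosome 10 (24915221 to 24927484, minus strand). Arg2 (79130777 to 79156301) and Odc1 (17544794 to 17551505) both lie on the plus strand of chromosome 12. All 8 are annotated as protein coding. Arg2 overlaps Vti1b on the other strand. Vti1b had up to 3533 counts in a library, the kit marks the strand, and the strand setting of the counting is not given in the sources used here, so the part of Vti1b reads in the Arg2 counts was not tested.

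Promoter sequences were available for 3 of the 8 genes (Ass1, Gch1 and Odc1), and they are shown for that reason. A relation of these sequences to the changes of the genes was not tested. The sequences are RefSeq GRCm38.p6, 5′ to 3′ on the strand of the gene, and end before the outermost start of the gene in RefSeq or GENCODE. Capitals mark a match to a motif.
Ass1, chr2:31470020-31470206, plus strand: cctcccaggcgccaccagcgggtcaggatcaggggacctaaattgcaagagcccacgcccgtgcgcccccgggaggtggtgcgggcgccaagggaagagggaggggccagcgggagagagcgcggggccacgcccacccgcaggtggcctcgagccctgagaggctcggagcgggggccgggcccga
Gch1, chr14:47189414-47189663, minus strand: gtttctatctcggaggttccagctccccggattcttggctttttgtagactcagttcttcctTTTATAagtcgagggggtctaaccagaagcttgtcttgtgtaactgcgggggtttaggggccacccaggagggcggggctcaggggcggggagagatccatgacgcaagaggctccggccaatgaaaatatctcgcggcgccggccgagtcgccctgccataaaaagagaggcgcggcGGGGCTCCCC
Odc1, chr12:17544623-17544793, plus strand: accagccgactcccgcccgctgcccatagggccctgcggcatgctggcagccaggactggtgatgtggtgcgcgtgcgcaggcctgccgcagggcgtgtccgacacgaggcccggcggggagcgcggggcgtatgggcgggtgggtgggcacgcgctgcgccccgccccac
The motifs were searched on both strands: the IRF element ISRE, the κB element of NF-κB, the E-box CACGTG, the TATA box TATAAA and the C/EBP-ATF element TGATGNAAN. In the 250 bases of Gch1 a κB match began 10 bases and a TATA box match, on the reverse strand, 188 bases before the start. Of 32851 RefSeq promoter windows of that length 3.90% hold the κB motif, 12.4% the TATA box and 2.98% the IRF element. In the 187 bases of Ass1 and the 171 bases of Odc1 none of these letter patterns was found, which says nothing of the factors. The GC content of the 3 windows was 75.4% for Ass1, 59.2% for Gch1 and 77.2% for Odc1.

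Levels per kilobase of exon allow a rough comparison of genes. The length is that of all annotated exons of a gene, and the transcripts expressed may be shorter. On this scale Odc1 had the highest level with PBS at 42.6 ± 2.05 CPM per kb (SD, n = 3). Gch1 (14 ± 2.66), Asl (13.9 ± 1.19), Ass1 (5.87 ± 0.815) and Nos2 (4.96 ± 2.85) followed in CPM per kb, and Arg2 was at 1.47 ± 0.339 CPM per kb. With IFN-γ the highest level was that of Nos2 at 68.5 ± 6.45 CPM per kb, over Odc1 at 49.3 ± 5.76, Ass1 at 30.4 ± 2.63, Gch1 at 25.5 ± 2.36 and Asl at 13.7 ± 0.592 CPM per kb. With LE added to IFN-γ Nos2 reached 127 ± 9.78 CPM per kb and Odc1 114 ± 7.31 CPM per kb, while with SE added Odc1 was at 120 ± 14.2 and Nos2 at 93.3 ± 7.02 CPM per kb.

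**Figure D1:**
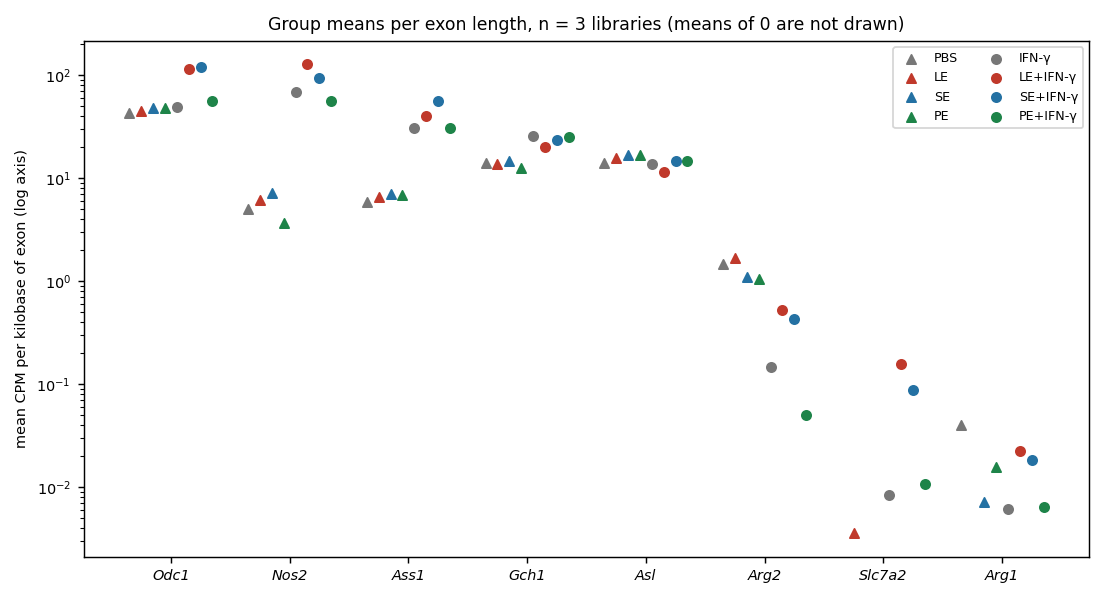
Mean level of each gene in each condition as CPM per kilobase of exon on a log axis. Triangles are conditions without IFN-γ, circles those with it, and colours are the peptides (grey for none). Nos2 spans 3.69 CPM per kb with PE to 127 CPM per kb with LE and IFN-γ, and Arg1 and Slc7a2 lie under 1 CPM per kb in every condition.

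Arg1 was at the limit of detection in every condition. The 24 libraries held 0 to 3 counts each, 9 in all without IFN-γ and 9 with it, and Arg1 passed the filter on low counts in no fit. The 3 PBS libraries had 2, 1 and 3 counts and the 3 LE libraries 0, 0 and 0. Over the LE libraries together 3 counts correspond to 0.0477 CPM, the level that a count of 0 allows. Such floors and the counting intervals given below cover counting error only.

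**Figure D2:**
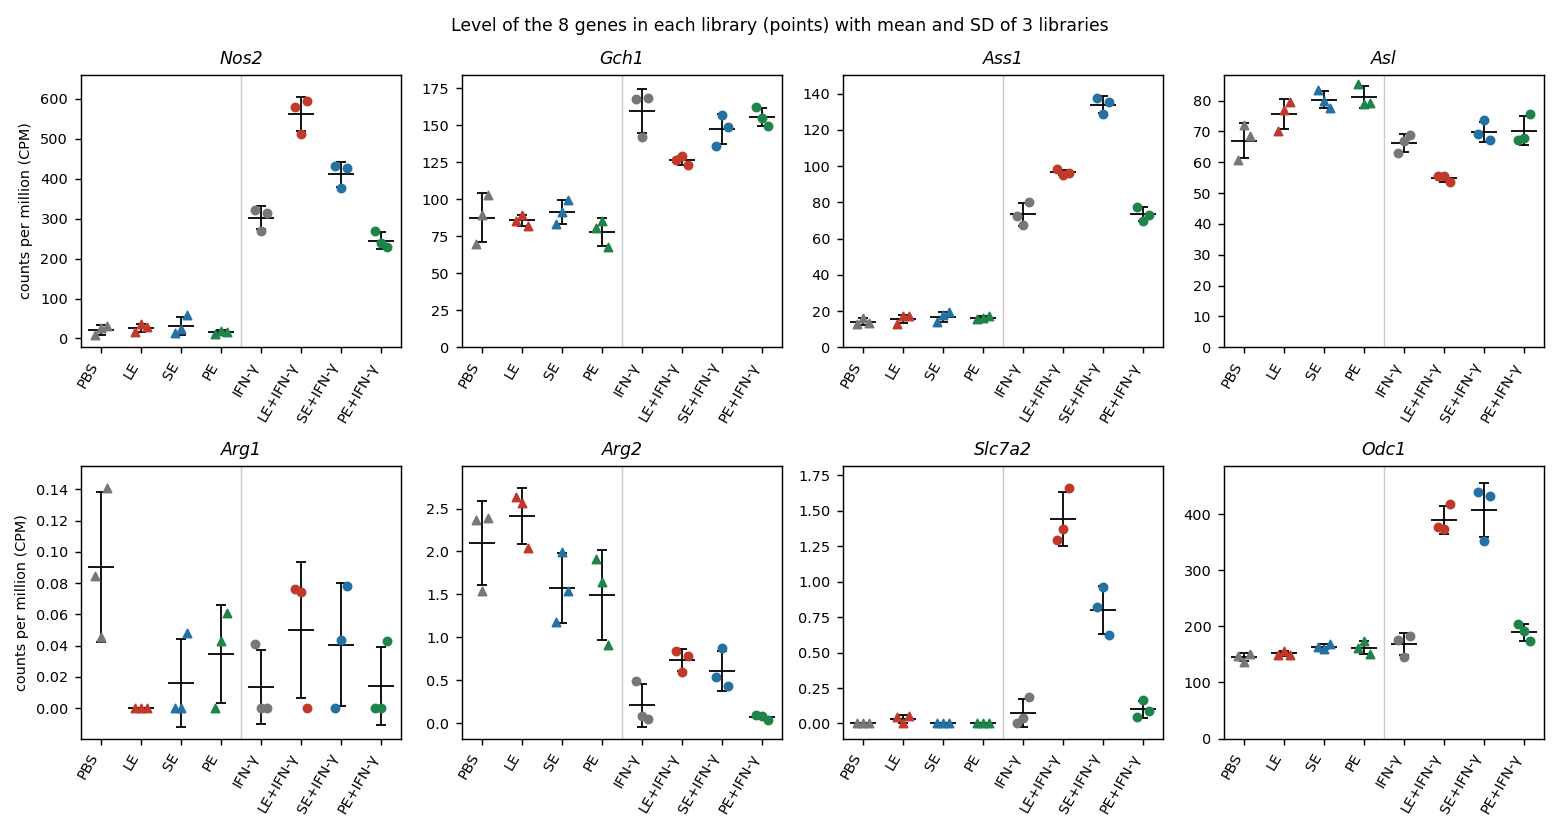
CPM of the 8 genes in the 24 libraries. Points are libraries (triangles without and circles with IFN-γ), and bars are the mean and SD of 3 libraries. Nos2 and Ass1 are higher in every library with IFN-γ than in any without, Odc1 and Slc7a2 are highest with LE or SE added to IFN-γ, and Arg2 is lower in every library with IFN-γ.

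The first comparison was IFN-γ against PBS. Nos2 had 7.85, 25.6 and 32.2 CPM in the PBS libraries and 323, 270 and 315 CPM with IFN-γ. The lowest library with IFN-γ was above the highest PBS library, and the PBS libraries themselves differed widely. Overlap of groups is a description here and below, since the share of all genes whose groups do not overlap is not given. The log2 fold change was 3.81 (SE 0.347), which is 14-fold (edgeR adjusted p 6.89e-06). In parentheses before a number SE stands for the standard error, and elsewhere for the peptide. In bulk RNA, a change in the share of cells that express a gene and a change in each cell cannot be told apart.

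Ass1 had 12.7, 16.4 and 13.5 CPM with PBS and 72.5, 67.6 and 80.2 CPM with IFN-γ. The groups did not overlap, and Ass1 rose 5.24-fold (log2 fold change 2.39, SE 0.116, edgeR adjusted p 3.02e-08). Gch1 had 69.8, 89.3 and 103 CPM with PBS and 168, 142 and 168 CPM with IFN-γ. It also rose without overlap, 1.84-fold (log2 fold change 0.88, SE 0.126, edgeR adjusted p 0.000205).

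Arg2 moved the other way. It had 2.36, 1.54 and 2.39 CPM with PBS, from 34 to 56 counts, and 0.492, 0.0818 and 0.0472 CPM with IFN-γ, from 1 to 12 counts. All 3 libraries with IFN-γ were below all 3 PBS libraries, and Arg2 was 9.55-fold lower (log2 fold change -3.26, SE 0.531, edgeR adjusted p 0.000525).

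Asl and Odc1 were not called. Asl had 60.7 to 71.9 CPM with PBS and 63.1 to 68.7 CPM with IFN-γ, at a log2 fold change of 0.00 (95% interval -0.19 to 0.19). Odc1 had 137 to 150 CPM with PBS and 146 to 182 CPM with IFN-γ (log2 fold change 0.23, edgeR adjusted p 0.0598). Slc7a2 had 0 counts in the 3 PBS libraries and 0, 1 and 4 counts with IFN-γ, too few to be tested. Called means here, in every comparison, an adjusted p under 0.05 and a fold change over 1.5. By that rule 3 of the 5 members over the filter in both groups were called, all higher, where 18.1% of 12242 genes were called (9.79% higher and 8.28% lower). Arg2 passed the filter through the PBS libraries, where it is high, so it is left out of that count and its call is a description. The median log2 fold change was 0.88 over these 5 members and -0.01 over all genes tested.

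The peptides without IFN-γ were then compared with PBS. Nos2 had 17.0, 36.3 and 28.3 CPM with LE, 14, 23.0 and 57.8 CPM with SE, and 12.1, 19.9 and 16.8 CPM with PE. Each group overlapped PBS, and SE replicate 3 was the highest library without IFN-γ. The log2 fold changes of Nos2 against PBS had 95% intervals of -0.68 to 1.40 for LE, -0.43 to 1.65 for SE and -1.41 to 0.73 for PE, so changes within these bounds could not be told from none. Without a filter on low counts, which tests more genes, Nos2 was called for SE at the same 0.61 (edgeR adjusted p 1.71e-05).

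By edgeR, 0 of 6 tested members were called for LE, SE or PE, where 0.0242%, 1.92% and 3.13% of 12420 genes were called. At an unadjusted p under 0.05 the members numbered 1, 3 and 2, and DESeq2 also called 0. Asl and Odc1 passed the p threshold for SE and PE under the fold change minimum, as 14.3% and 20% of all genes passed it. Asl had 77.8 to 83.4 CPM with SE and 79.0 to 85.5 CPM with PE, which differed from PBS by 0.33 (edgeR adjusted p 0.0187) and 0.36 (edgeR adjusted p 0.0111) in log2 units. Odc1 was at 0.25 for SE (edgeR adjusted p 0.0201) and 0.24 for PE (edgeR adjusted p 0.0166). Over all genes the log2 fold changes against PBS fell with exon length, at a Spearman's rho of -0.37 for LE, -0.44 for SE and -0.45 for PE across 12064 genes, which are not independent replicates. The part of this trend in the values of Asl and Odc1 was not tested.

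The study's Model A asks what an epitope adds to IFN-γ alone. Of the 5 members that were over the filter in every group (Nos2, Ass1, Asl, Gch1 and Odc1), LE gave a call of Nos2 and Odc1 and SE a call of Ass1 and Odc1. For LE that is 2 of 5, both higher, where 15.5% of 12720 genes were called (9.58% higher, and 50.5% at an adjusted p under 0.05, which these 5 also passed). For SE 2 of 5 were called, both higher, where 7.39% were called (5.01% higher), and for PE edgeR called 0 of 5, where 0.629% were called. For PE 2 members, Nos2 and Odc1, had an unadjusted p under 0.05, and DESeq2 called 0. Over these 5 the median log2 fold change came to 0.41 (LE), 0.47 (SE) and 0.03 (PE), beside -0.01, -0.01 and 0.00 over all genes tested. Slc7a2 and Arg2 passed the filter only or mainly through the LE and SE libraries, where they are high, which favours a difference in advance. They are left out of these counts and described by their values.

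Nos2 had 579, 513 and 594 CPM with LE and IFN-γ, 432, 376 and 427 CPM with SE and IFN-γ, and 269, 238 and 228 CPM with PE and IFN-γ. No 2 of these groups overlapped each other or IFN-γ alone (270 to 323 CPM). By mean level the order was LE, SE, IFN-γ alone and PE. IFN-γ alone and PE were barely apart, at 269.7 CPM in the lowest library with IFN-γ alone and 269.3 CPM in the highest with PE. Nos2 was called as 1.88-fold higher with LE (log2 fold change 0.91, SE 0.0796, edgeR adjusted p 5.74e-08). With SE it differed from IFN-γ alone by 0.47 (SE 0.0793, edgeR adjusted p 0.000177) and with PE by -0.27 (SE 0.0797, edgeR adjusted p 0.0369), which passed the p threshold but not the fold change minimum. Over all genes the log2 fold changes in Model A fell with exon length for PE (Spearman's rho -0.39 across 12343 genes). They rose with it for LE (0.21), and for SE rho was -0.06. The part of these trends in the values of Nos2 and the other members was not tested.

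Gch1 did not follow Nos2. It had 126, 129 and 123 CPM with LE and IFN-γ, 136, 157 and 149 CPM with SE and IFN-γ, and 162, 155 and 149 CPM with PE and IFN-γ. The LE libraries were below every library with IFN-γ alone (142 to 168 CPM), a log2 difference of -0.32 (SE 0.0666, edgeR adjusted p 0.000612) that is under the fold minimum. SE and PE overlapped IFN-γ alone, at log2 fold changes of -0.09 (95% interval -0.23 to 0.05) and -0.01 (-0.15 to 0.13).

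The enzymes that rebuild arginine differed between the peptides. Ass1 had 98.2, 95.1 and 96.4 CPM with LE and IFN-γ, 138, 129 and 136 CPM with SE and IFN-γ, and 77.5, 69.9 and 72.9 CPM with PE and IFN-γ. Here SE was the highest group, LE lay between it and IFN-γ alone (67.6 to 80.2 CPM) without overlap, and PE overlapped IFN-γ alone. Ass1 was called as 1.86-fold higher with SE (log2 fold change 0.89, SE 0.0642, edgeR adjusted p 1.30e-08), and with LE it was at 0.41 (SE 0.0644, edgeR adjusted p 4.20e-05), under the fold change minimum. Asl was lowest with LE and IFN-γ, at 55.6, 55.4 and 53.6 CPM. The other 3 groups with IFN-γ had 63.1 to 75.6 CPM, and Asl differed with LE by -0.26 (SE 0.0636, edgeR adjusted p 0.00265), also under the minimum.

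The transporter Slc7a2 was counted mostly where LE or SE met IFN-γ. It had 34, 37 and 38 counts with LE and IFN-γ, 20, 22 and 16 with SE and IFN-γ, and 1, 4 and 2 with PE and IFN-γ, against 0, 1 and 4 with IFN-γ alone and 2 counts in all in the 12 libraries without IFN-γ. The LE and SE groups overlapped neither each other nor any other group. Pooled over the libraries of each group, the ratio to IFN-γ alone was 20.1 for LE (95% counting interval 8.34 to 63.0), 11.2 for SE (4.52 to 35.7) and 1.40 for PE (0.384 to 5.61). Even its highest level, 1.44 ± 0.192 CPM (SD, n = 3) with LE and IFN-γ, was low.

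Arg2, which was lower with IFN-γ, was higher again when LE or SE was added, without reaching its level without IFN-γ. It had 0.837, 0.594 and 0.786 CPM with LE and IFN-γ (16 to 22 counts), 0.533, 0.876 and 0.431 CPM with SE and IFN-γ (11 to 20 counts), and 0.0904, 0.0821 and 0.0428 CPM with PE and IFN-γ (1 or 2 counts). The LE libraries were above all 3 with IFN-γ alone, while the SE libraries overlapped them, since IFN-γ replicate 1 had 0.492 CPM. Arg2 passed the filter in these groups through all 6 LE and SE libraries and 1 of the 3 with IFN-γ alone, so its test is no support for a difference. The fit gave Arg2 with LE a log2 fold change of 1.78 ± 0.526 (standard error) at an edgeR adjusted p of 0.00891, and that with SE 1.52 ± 0.547 at an edgeR adjusted p of 0.0402. Leaving out replicate 3 of every group ended both calls (1.33 and 1.32, edgeR adjusted p 0.0944 and 0.135), and leaving out replicate 2 of every group ended that for SE (0.78, edgeR adjusted p 0.403). The call for SE was lost without any 1 of 7 of the 12 libraries, which were IFN-γ 2 or 3, LE + IFN-γ 1 or 3, SE + IFN-γ 1 or 2, or PE + IFN-γ 1, at log2 fold changes of 1.11 to 1.61 and edgeR adjusted p of 0.051 to 0.169, and with DESeq2 (adjusted p 0.0501).

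Odc1, which did not pass the test for IFN-γ alone, was called with both LE and SE. It had 378, 373 and 418 CPM with LE and IFN-γ, 439, 352 and 432 CPM with SE and IFN-γ, and 204, 192 and 173 CPM with PE and IFN-γ. The LE and SE groups overlapped each other and lay above every other library, while PE overlapped IFN-γ alone (146 to 182 CPM). Odc1 was called as 2.34-fold higher with LE (log2 fold change 1.23, SE 0.0921, edgeR adjusted p 9.23e-09) and 2.47-fold higher with SE (1.31, SE 0.0922, edgeR adjusted p 1.05e-08). For PE the log2 fold change was 0.20 (95% interval 0.01 to 0.39, edgeR adjusted p 0.16).

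**Figure D3:**
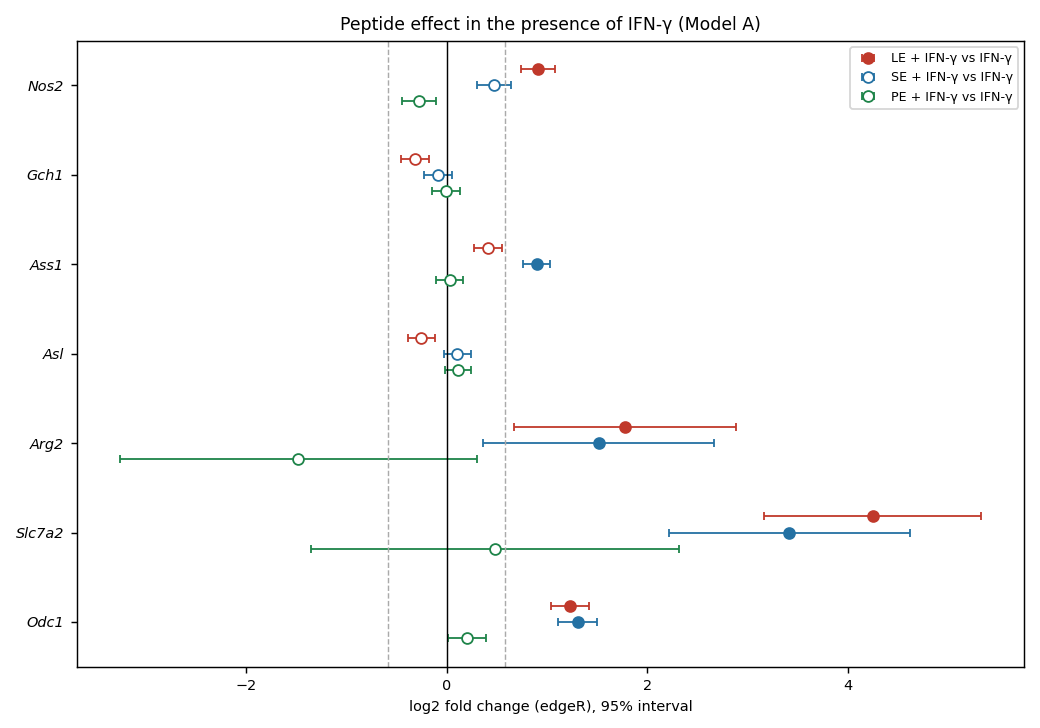
Log2 fold change of 7 members when LE (red), SE (blue) or PE (green) was added to IFN-γ, with 95% intervals from edgeR. Filled points were called, and dashed lines mark a 1.5-fold change. For Nos2 the LE point is the rightmost of the 3 at 0.91, for Ass1 the SE point at 0.89, Odc1 lies at 1.23 and 1.31, and the PE points include 0 in the interval for all members shown except Nos2 at -0.27 and Odc1 at 0.20. Slc7a2 and Arg2 passed the filter only or mainly through the LE and SE libraries, so their filled points are no support for a difference.

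The peptides were compared directly in the presence of IFN-γ, in 3 pairs at the same dose and time, with p-values adjusted over all 12720 genes. Between LE and SE 0 of 7 tested members were called, where 4.93% of genes were called. At an unadjusted p under 0.05 there were 5 members, 4 passed the adjusted p alone (35.6% of genes did), and DESeq2 also called 0. Nos2 was 1.35-fold higher with LE than with SE (log2 fold change 0.44, SE 0.0789, edgeR adjusted p 0.00053), Ass1 was 1.40-fold lower (-0.48, SE 0.0632, edgeR adjusted p 4.19e-05) and Asl was 1.28-fold lower (-0.36, SE 0.0634, edgeR adjusted p 0.00044). These and Gch1 (-0.23, edgeR adjusted p 0.0116) passed the p threshold but not the fold change minimum. Slc7a2 was over the filter in both groups, at 0.83 (95% interval 0.14 to 1.52, edgeR adjusted p 0.0555), and without IFN-γ replicate 1 or 3 it was called at 0.83 (edgeR adjusted p 0.0409 and 0.037). For Odc1 the difference was -0.08 (95% interval -0.27 to 0.11) and for Arg2 0.27 (-0.64 to 1.17), so the data bound the first closely and the second hardly. The log2 fold changes between LE and SE rose with exon length (Spearman's rho 0.35 across 12343 genes), and the part of that trend in these values was not tested.

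Between LE and PE 2 of the 5 members over the filter in both groups were called, both higher with LE, where 21.6% of genes were called (12.7% higher). Nos2 was 2.27-fold higher (log2 fold change 1.18, SE 0.0802, edgeR adjusted p 2.54e-09) and Odc1 2.04-fold higher (1.03, SE 0.0915, edgeR adjusted p 5.24e-08). Slc7a2 had 109 counts over the LE libraries and 7 over those with PE, and Arg2 56 and 5. Both passed the filter only through groups other than PE, so these differences are not counted. Ass1 was 1.30-fold higher with LE (0.38, edgeR adjusted p 6.17e-05), under the minimum. Over all genes the log2 fold changes between LE and PE also rose with exon length (Spearman's rho 0.35 across 12343 genes). The part of that trend in the values of the members was not tested.

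Between SE and PE 3 of the same 5 members were called, all higher with SE, where 7.59% of genes were called (5.25% higher). Ass1 was 1.82-fold higher (log2 fold change 0.87, SE 0.0642, edgeR adjusted p 2.25e-08), Odc1 2.15-fold (1.10, SE 0.0916, edgeR adjusted p 8.56e-08) and Nos2 1.68-fold (0.75, SE 0.0798, edgeR adjusted p 1.72e-06). For Slc7a2 the counts were 58 over the SE libraries and 7 with PE, and for Arg2 44 and 5, and they are again not counted. The call of Nos2 was lost in a fit of all 8 groups (0.76, SE 0.329, edgeR adjusted p 0.0932), whose error includes the wide spread of Nos2 without IFN-γ. Asl and Gch1 were close between SE and PE, at -0.01 (95% interval -0.14 to 0.12) and -0.08 (-0.22 to 0.06). Between SE and PE the log2 fold changes rose with exon length too (Spearman's rho 0.21 across 12343 genes). Its part in the values of the members was not tested.

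In Model B the effect of IFN-γ was read beside each peptide, against that peptide alone. Nos2 and Ass1 rose with IFN-γ beside each peptide. Nos2 rose 20.4-fold with LE, 12.6-fold with SE and 14.5-fold with PE (log2 fold changes 4.35, 3.66 and 3.86, SE 0.333, 0.324 and 0.34, edgeR adjusted p 4.27e-10, 5.93e-09 and 7.44e-09). Ass1 rose 6.03-fold, 7.72-fold and 4.33-fold (2.59, 2.95 and 2.12). Every library with IFN-γ lay above every library without it for both genes.

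Odc1 was called beside LE (2.53-fold, log2 fold change 1.34, SE 0.078, edgeR adjusted p 6.41e-12) and SE (2.42-fold, 1.28, SE 0.0778, edgeR adjusted p 1.91e-11). Beside PE it was at 0.18 (95% interval 0.02 to 0.34, edgeR adjusted p 0.0619). Gch1 was called beside PE (1.93-fold) and SE (1.57-fold), and beside LE it was 1.45-fold higher, under the minimum. The SE call of Gch1 was lost without SE replicate 1 (log2 fold change 0.58). Arg2, which passed the filter mostly through the libraries without IFN-γ, had lower values with IFN-γ beside each peptide, 3.32-fold with LE, 2.61-fold with SE and 20.4-fold with PE (edgeR adjusted p 2.50e-05, 0.000846 and 1.41e-07). Asl was lower by less than the minimum, at -0.49, -0.24 and -0.26. Over all genes the Model B log2 fold changes rose with exon length (Spearman's rho 0.22 beside LE, 0.17 beside SE and 0.08 beside PE, across 12566 genes). The part of these trends in the values of the members was not tested.

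Slc7a2 had 109 counts over the 3 libraries with LE and IFN-γ and 2 over those with LE, a ratio of 45.0 (95% counting interval 12.2 to 377). With SE it had 58 counts against 0, which is at least 16.6-fold higher when 3 counts over the group are taken as the floor, and with PE 7 against 0, at least 2.04-fold. Slc7a2 passed the filter only through the libraries with LE or SE and IFN-γ, so no call is given for it. Of the 5 members over the filter in every group, 3 were called beside LE (Nos2, Ass1 and Odc1), 4 beside SE (these and Gch1) and 3 beside PE (Nos2, Ass1 and Gch1), where 35.1%, 26.3% and 21.0% of 12947 genes were called. The median log2 fold change of these 5 was 1.34, 1.28 and 0.95, and that of all genes tested 0.00, 0.00 and 0.01. Arg2 was also over the filter in the LE libraries with and without IFN-γ. With Arg2 counted beside LE, 4 of 6 were called, 3 higher and 1 lower, at a median of 0.94.

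**Figure D4:**
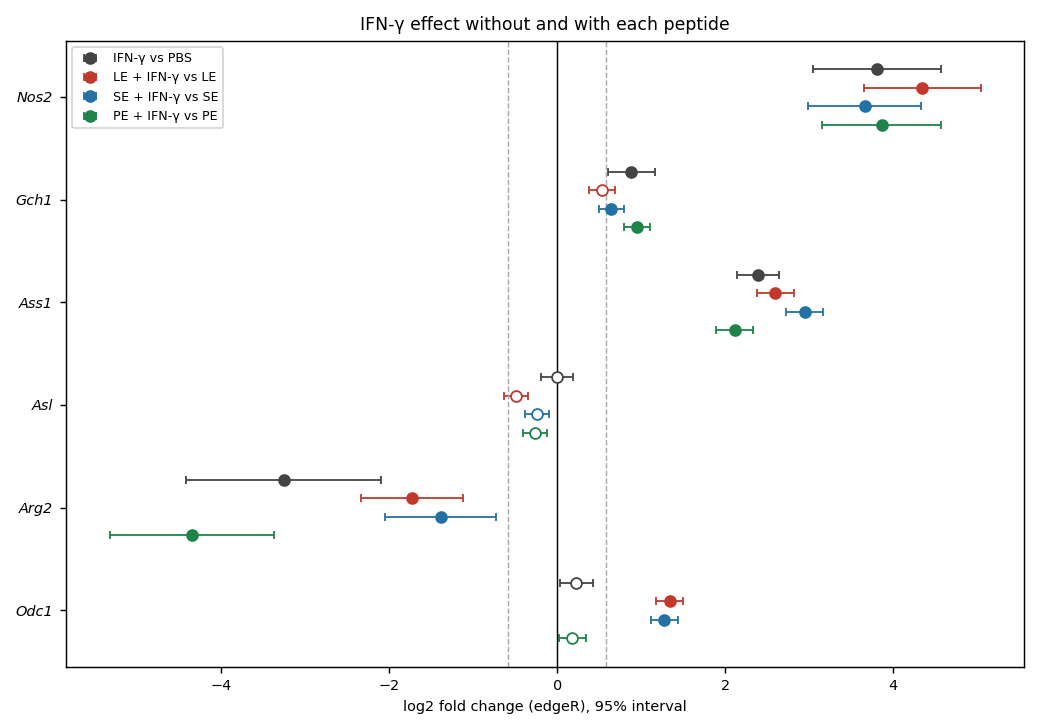
Log2 fold change of 6 members with IFN-γ, without peptide (dark grey) and beside LE (red), SE (blue) or PE (green), with 95% intervals from edgeR. Filled points were called, and dashed lines mark a 1.5-fold change. Odc1 lies at 1.34 and 1.28 beside LE and SE and at 0.23 and 0.18 without peptide and beside PE, and Arg2 is left of 0 in all 4. Arg2 passed the filter mostly through the libraries without IFN-γ, so its filled points are a description.

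Whether a peptide changed the size of the IFN-γ effect was tested as an interaction over all 24 libraries. For LE and SE 1 of the 5 members over the filter in every group was called, Odc1, as positive, where 18.9% and 7.96% of 13096 genes were called (11.3% and 5.08% positive), and for PE edgeR called 0 of 5, where 0.0% were called. For PE 1 member, Asl, had an unadjusted p under 0.05, and DESeq2 called 0. The IFN-γ effect on Odc1 was greater by a log2 value of 1.11 beside LE (SE 0.12, edgeR adjusted p 2.74e-07) and 1.05 beside SE (SE 0.12, edgeR adjusted p 2.15e-06). For PE it differed by -0.06 (95% interval -0.31 to 0.19). Over all genes the interaction values rose with exon length (Spearman's rho 0.31 for LE, 0.26 for SE and 0.24 for PE, across 12706 genes). The part of these trends in the values of the members was not tested. Arg2 was over the filter in 18 of the 24 libraries, most of them without IFN-γ, so it is not counted. Its fitted fall was smaller by 1.52 beside LE (SE 0.593, edgeR adjusted p 0.045) and by 1.87 beside SE (SE 0.612, edgeR adjusted p 0.0321).

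Single libraries decided whether Arg2 passed the limits for a call. That for LE was lost without any 1 of 12 of the 24 libraries (edgeR adjusted p 0.0514 to 0.164), which were PBS 1 or 3, IFN-γ 2 or 3, any of the 3 with LE, LE + IFN-γ 1 or 3, SE + IFN-γ 1, or PE + IFN-γ 1 or 2. That for SE was lost without any 1 of 8 (edgeR adjusted p 0.0502 to 0.113), which were PBS 1 or 3, IFN-γ 2 or 3, SE 1 or 3, or SE + IFN-γ 1 or 2.

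The interaction of Nos2 was not called for any peptide, at 0.54 for LE (95% interval -0.51 to 1.58), -0.15 for SE (-1.18 to 0.89) and 0.05 for PE (-1.03 to 1.12). These intervals are wide, and Nos2 ranged from 7.85 to 57.8 CPM in the libraries without IFN-γ. Ass1 was at 0.56 for SE (edgeR adjusted p 0.0149), under the fold change minimum, and over it without PBS 1, PBS 3, IFN-γ 3, SE 3 or SE + IFN-γ 2 (0.59 to 0.69) or with library totals in place of TMM (0.62). Asl was at -0.49 for LE (edgeR adjusted p 0.000813), under the minimum. For Slc7a2, with 0 counts in most libraries without IFN-γ, the fitted interaction has no bounded error and is not given.

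The members were set beside 67 further genes of arginine, nitric oxide, tetrahydrobiopterin and polyamine metabolism, 65 of which are in the table. With IFN-γ against PBS 9 of 46 tested were called, 4 higher and 5 lower, with a median log2 fold change of 0.01, where 18.1% of all genes were called. Nos1, the neuronal nitric oxide synthase, had 6.33 to 7.34 CPM with PBS and 39.3 to 47.9 CPM with IFN-γ (log2 fold change 2.70, SE 0.112, edgeR adjusted p 7.33e-09). Among 8 genes of cationic amino acid transport, 5 of which were tested, Slc3a2 and Slc7a7, the heavy and a light chain of amino acid exchangers, rose by 1.06 and 1.04 (edgeR adjusted p 9.06e-06 for each), and Slc25a15, the mitochondrial ornithine carrier, fell by 0.75. Gchfr, the feedback regulator of Gch1, fell by 1.35 (edgeR adjusted p 0.000145), the 1 gene called of 6 tested for tetrahydrobiopterin. Gamt, which makes creatine, fell by 1.28 (edgeR adjusted p 3.94e-05). Of 15 polyamine genes tested Smox was called as higher and Atp13a2 and Atp13a3 as lower.

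In Model A the wider genes were called for LE (7 of 47 tested, 4 higher and 3 lower, median -0.16), near the 15.5% of all genes. For SE and PE 0 of 47 were called by edgeR (7.39% and 0.629% of all genes), with 23 and 16 at an unadjusted p under 0.05 and 1 and 0 called by DESeq2. Without IFN-γ, 0 of 48 were called for LE and for SE against PBS by edgeR (10 and 18 at an unadjusted p under 0.05, and 0 and 0 by DESeq2), where 0.0242% and 1.92% of all genes were. For PE 2 were called (3.13% of all genes), Gchfr as higher (0.67) and Atp13a3 as lower (-0.72). Azin1, the antizyme inhibitor that protects ornithine decarboxylase, rose with LE by 0.85 (edgeR adjusted p 2.35e-07), and Atp13a3, a polyamine transporter, by 0.88 (edgeR adjusted p 5.62e-06). Srm, spermidine synthase, the enzyme after Odc1 in the route, had a mean of 229.9 CPM with IFN-γ alone (SD 13.0, n = 3) and 140.4 CPM with LE and IFN-γ (SD 3.87). It fell by 0.70 with LE (edgeR adjusted p 2.10e-08). Spr, sepiapterin reductase of tetrahydrobiopterin synthesis, fell by 0.79 (edgeR adjusted p 4.49e-07) and Pycr1, which makes proline, by 0.95 (edgeR adjusted p 3.47e-07). Log2 fold changes over all genes rose with exon length for LE here (Spearman's rho 0.21 across 12343 genes). The part of that trend in these wider genes was not tested.

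Directly between LE and SE 4 of 47 wider genes were called (4.93% of all genes), among them Gatm as higher with LE (0.77) and Gchfr and Gamt as lower (-0.73 and -0.59). Between LE and PE 10 of 47 were called, 4 higher and 6 lower with LE (21.6% of all genes), and between SE and PE 2 of 47, Atp13a3 as higher (0.63) and Pycr1 as lower (-0.71) with SE (7.59% of all genes). In Model B 23 of 48 were called beside LE, 18 beside SE and 10 beside PE, where 35.1%, 26.3% and 21.0% of all genes were. Nos1 and Slc3a2 were among those called as higher beside each peptide, at log2 fold changes of 2.03 to 2.40 and of 1.19 to 1.33. Gchfr and Gamt were called as lower beside each, at -2.31 to -1.62 and at -1.91 to -1.45. The interaction was called for 12 of 48 with LE, 7 with SE and 0 with PE (1 at an unadjusted p under 0.05, and 0 by DESeq2), where 18.9%, 7.96% and 0.0% of all genes were. Spr (-1.06 and -0.65) and Pycr1 (-1.12 and -0.78) were called with both LE and SE. The part of the exon length trends given above in the values of these wider genes was not tested.

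Genes whose level was most like that of Nos2 were ranked by Pearson's r of log2(CPM + 1) among 8631 genes with at least 10 CPM on average. The libraries share conditions, so r is a description. Over the 24 libraries the nearest were Igf2bp2 (0.986), Ccl2 (0.985), Polr3d (0.983) and Agpat9 (0.981), with 1 more gene at rank 4 whose name in the table has become a date. Among members, Ass1 had r = 0.969 with Nos2, Gch1 0.91, Odc1 0.748 and Asl -0.632. Within the 12 libraries with IFN-γ the nearest were Sntb2 (0.992), Itgam (0.992), Uhrf2 (0.991), Atf1 (0.991) and Tnfrsf1b (0.991), and there Odc1 had 0.864, Ass1 0.64, Gch1 -0.737 and Asl -0.761 with Nos2.

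For the other members the nearest 3 genes over 24 libraries were Upp1, Prdx5 and Cxcl9 for Ass1 (r 0.99 to 0.991), Ascc2, Trib3 and Ddit3 for Gch1 (0.985 to 0.988), Gde1, Rgl1 and Ankrd50 for Odc1 (0.977 to 0.981) and Znhit2, Edf1 and S100a11 for Asl (0.931 to 0.936). Within the 12 libraries with IFN-γ they were Hmox1, Smox and Bnip3 for Ass1 (0.973 to 0.991), Hdc, Nfkbib and Usp2 for Gch1 (0.953 to 0.972), Serpinb6b, Gm15459 and Rhov for Odc1 (0.991 to 0.994) and Coq8b, 1110065P20Rik and Praf2 for Asl (0.971 to 0.983).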

How the data were processed

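Stranded poly(A) libraries were read single-ended over 100 bases, and the authors counted uniquely aligned reads per gene with featureCounts (Rsubread 1.5.0p3) on GENCODE M12, build GRCm38.p5. The aligner and the strand setting are not given in the sources used here. The authors deposited 1 table of raw read counts of 48 libraries, not normalized, and each column was matched to a sample by its label. Rows of near-identical copies lose reads in such counting, and 26 gene names have become dates and are not named.

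Counts were tested with edgeR 4.0.16 (quasi-likelihood F test, TMM, filterByExpr with a minimum count of 10) in R 4.3.3, over all genes, with Benjamini-Hochberg adjustment over all genes tested. Calls needed an adjusted p under 0.05 and a fold change over 1.5, the limits of the study. Each fit held the 3 letter-labelled libraries of each group compared: PBS and IFN-γ (6 libraries), PBS and the peptides (12), the groups with IFN-γ (12), the groups with a peptide (18), or all (24). CPM are counts per M counts of the library total. Levels per kb use union exon lengths of GENCODE M21. Intervals are 95% from the fit, or exact counting intervals for pooled counts. Replicate libraries differed by more than sampling noise (lowest chi-square per degree of freedom 3.89), and each counts as 1 replicate.

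Members and gene lists were chosen with earlier results of these data known. Named were all members, up to 3 called genes per direction and comparison of the wider lists with a mean of at least 1 CPM, and the 5 genes most like Nos2 (3 for other members). Alternatives were DESeq2 1.42.0, other scalings, no filter, no fold minimum, a replicate block, 1 fit of all groups, both label series, and each library left out. On counts simulated for LE + IFN-γ against IFN-γ (12704 genes), 87% of 2-fold and 97.0% of 4-fold changes were recovered, the shares for LE against PBS (12434 genes) were 79% and 95%, and those for the LE interaction (12983 genes) were 77.8% and 90.9%. Some genes of the lists and 1 motif are not reported here.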

Additional observations from a re-analysis of the deposited data

Results flagged for a closer look

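Between conditions, the IFN-γ effect on Odc1 differed beside LE by a log2 value of 1.11 and beside SE by 1.05 (edgeR adjusted p 2.74e-07 and 2.15e-06), and the 3 libraries with LE and IFN-γ and the 3 with SE and IFN-γ lay above all others. For Arg2 the fitted IFN-γ effect differed by 1.52 beside LE and by 1.87 beside SE (edgeR adjusted p 0.045 and 0.0321). Arg2 passed the filter on low counts mostly through libraries without IFN-γ, at 1 to 22 counts per library with IFN-γ. Its call was lost without any 1 of 12 of the 24 libraries for LE and any 1 of 8 for SE, so its values are a description. Whether these interactions hold in other cells was not tested.

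In the 24 libraries with HLA numbers, which the main comparisons do not use, Nos2, Ass1, Slc7a2 and Odc1 were high where the label is LE or PE and names no IFN-γ. The share of all genes that differ from PBS in the same way was not computed. The values are therefore a description and no result about these members. Nos2 had a mean of 246 CPM in those labelled LE and 225 CPM in those labelled PE, against 6.74 to 33.4 CPM in those labelled PBS. Ass1 had 94.9 and 62.3 CPM (against 6.69 to 7.53), Slc7a2 5.06 and 2.65 CPM (against 0.0705 to 0.215) and Odc1 557 and 354 CPM (against 190 to 288). In the same series Nos2 had 2.39 to 4.86 CPM in the libraries labelled IFNy and 2.08 to 4.05 CPM in those labelled SE+IFNy. It had 79.3 to 95.6 CPM in those labelled LE+IFNy and 96.4 to 107 CPM in those labelled PE+IFNy. For Ass1 the means of these LE+IFNy and PE+IFNy libraries were 53.7 and 52.3 CPM. The libraries labelled LE and PE also had a high IFN-γ target score, against their label. In the deposited table, in 8 of 8 blocks of 6 columns the HLA-numbered columns carry another group label than the letter-labelled columns beside them. The columns labelled LE lay beside letter-labelled SE+IFNy columns, and those labelled PE beside LE+IFNy columns. Those labelled IFNy lay beside PE, and those labelled SE+IFNy beside PBS. The IFN-γ target score was 6.41 or more in each HLA-numbered library beside letter-labelled columns with IFN-γ. It was 2.57 to 2.82 in those beside columns without IFN-γ. Whether the label or the position gives the treatment was not tested. What these labels stand for is therefore uncertain, and the values are given as labelled. Here they are set only beside other libraries with HLA numbers. Groups of 3 libraries are too small for a test of outlying samples.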

How the results depend on the processing

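Over the comparisons, members were called in 4 of 8 values for IFN-γ against PBS, 0 of 24 for peptides against PBS, 8 of 24 for Model A, 9 of 24 between peptides, 16 of 24 for Model B and 4 of 24 for the interaction, with Slc7a2 and Arg2 counted although the filter on low counts lets them pass mainly through the groups where they are high. Arg1, tested in no fit, is in the denominators. In the same order, the shares of all genes called were 18.1%, 0.0242% to 3.13%, 0.629% to 15.5%, 4.93% to 21.6%, 21.0% to 35.1% and 0.0% to 18.9%. The counts serve only to compare settings. DESeq2 size factors and the replicate block changed 0 of 108 values. No label says what a replicate number marks. Deviations of same-numbered libraries correlated at a median of 0.049 (-0.114 to 0.235, 25 of 84 pairs over 0.1) and those of other pairs at -0.023 (12 of 168 over 0.1), and 16 of 24 libraries were closest to their own number. That is a hint of pairing from the data, not the design, since not every pair was over 0.1. With the replicate block the calls were again 4, 0, 8, 9, 16 and 4. Leaving out replicates gave 4 to 4, 0 to 0, 6 to 8, 9 to 10, 15 to 16 and 2 to 4 calls. Of 41 called values 6 were lost in any of 27 such settings, 2 were gained and 0 turned. Without a fold minimum the peptides against PBS had 4 calls, Model A 13 and the peptide pairs 16. Without a filter on low counts 1 value was called for peptides against PBS, Nos2 with SE (0.61, SE 0.117, edgeR adjusted p 1.71e-05), and the cause was not tested. Library totals in place of TMM, chosen after seeing the data, changed 1 value (Ass1, SE interaction).

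Joining both label series gave 0 calls for IFN-γ against PBS, Model A, the peptide pairs and the interaction, and 1 for Model B. With the series as a block they were 0, 4, 2 and 0, 3 for Model B and 5 for peptides against PBS. Of the 24 added libraries 12 go against their IFN-γ label. Called values that turned when both series were joined (then with the series as a block) were Slc7a2 for LE + IFN-γ against LE at -1.52 (-0.42) and for PE + IFN-γ against PE at -2.25 (-1.93), Odc1 for LE + IFN-γ against LE at -0.29 (-0.22), and the LE interactions of Arg2 at -0.16 (-0.18) and Odc1 at -0.22 (-0.14). With the series as a block alone Nos2 for SE against PE was at -2.02, Ass1 for the same pair at -0.83 and Nos2 for PE + IFN-γ against PE at -0.11. Depth limits Arg1 (0 to 3 counts per library), Slc7a2 and Arg2.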

Other observations

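Genes that are known from alternatively activated macrophages were measured beside Arg1. Of 14 listed, 7 were tested for IFN-γ against PBS, and 3 were called, all higher (Klf4, Pparg and Il4ra), where 18.1% of all genes were called. In Model A 5 of 7 were called for LE (Pparg, Msr1 and Ccl22 higher, Mrc1 and Clec10a lower), 3 for SE (Msr1 and Ccl22 higher, Mrc1 lower) and 1 for PE (Ccl22 higher), where 15.5%, 7.39% and 0.629% of all genes were called. Over the 7 the median log2 fold change in Model A came to 0.28 (LE), 0.35 (SE) and 0.04 (PE). These genes were named after their values were seen, so the counts are a description and no result about this list. Whether some passed the filter on low counts only through the groups where they are high was not tested. Arg1 itself stayed at 0 to 3 counts per library.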
